A study of Mus musculus with 8 samples.

Results

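The genes described here are the 9 mouse stefins and cystatins Cst3, Cst7, Cstb, Stfa1, Stfa2, Stfa3, Stfa2l1, Gm5483 and BC100530, out of 52636 gene identifiers in the count table. They were selected on the difference between LPS and vehicle in these same libraries, so that difference is given for them as a description. The number of them past the threshold is stated only beside the share of all genes, and supports nothing. RNA was sequenced from primary microglia of wild-type (WT) C57BL/6 mice (C57BL/6N pups by the study's methods), shaken off mixed glial cultures of newborn brain. The cells were kept in medium with 10% serum and 10 ng/ml of the growth factor CSF-1, and received either vehicle or 5 µg/ml lipopolysaccharide (LPS), the bacterial cell wall component sensed by Toll-like receptor 4, for 24 h. Each group had 4 libraries, labelled as biological replicates 1 to 4. A library held between 20071921 and 30604447 counted reads.

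Cystatins are inhibitors of the papain-like cysteine proteases, among them the cathepsins that degrade protein in lysosomes. They bind as a wedge, in which a conserved hairpin loop enters the active-site cleft of the protease. Stefins are the cytosolic branch without a signal peptide, and the type 2 cystatins are secreted or carried to the endolysosomal system. Humans have a single stefin A gene, whereas mice carry a cluster of stefin A copies, known for high expression in neutrophils and in skin.

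All 9 genes were found in the table. Cst3 (chr2:148871722-148875692, minus strand) and Cst7 (chr2:150570415-150578944, plus strand) encode the type 2 cystatins C and F, and Cstb (chr10:78425669-78427622, plus strand) encodes stefin B. The other 6 genes are stefin A copies on chromosome 16 of GRCm38. In order along the chromosome these are Stfa2l1 (chr16:36156811-36161953, plus), Gm5483 (chr16:36184212-36188111, plus), Stfa1 (chr16:36276951-36285373, plus), BC100530 (chr16:36359382-36367748, minus), Stfa2 (chr16:36403992-36408457, minus) and Stfa3 (chr16:36450537-36455392, minus). In the same cluster the annotation places 4 further stefin A copies that are in the count table, Csta1, Gm5416, 2010005H15Rik and BC117090. Gm4758, also listed for the cluster, was not in the count table under that symbol. All 9 genes are annotated as protein coding.

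The coding bases around the hairpin loop are shown because they tell the 3 single-copy genes from the stefin A copies, and show where stefin A copies are identical over nearly the length of a read. Each stretch has 45 bases, 5′ to 3′ on the coding strand, taken from GENCODE vM21 transcripts, with the 5 loop codons in capitals. All lie in coding exons, and in Cst3 and Cst7 the stretch crosses an exon junction, so that the positions given span an intron.
Cst3, chr2:148872904-148875170, minus strand: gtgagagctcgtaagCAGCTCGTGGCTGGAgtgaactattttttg
Cst7, chr2:150575859-150577682, plus strand: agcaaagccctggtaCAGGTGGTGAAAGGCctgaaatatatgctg
Cstb, chr10:78426981-78427025, plus strand: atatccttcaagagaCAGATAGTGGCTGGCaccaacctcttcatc
Stfa1, chr16:36280520-36280564, plus strand: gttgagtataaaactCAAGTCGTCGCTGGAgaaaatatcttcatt
Stfa2, chr16:36405133-36405177, minus strand: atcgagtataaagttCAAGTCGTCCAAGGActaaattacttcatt
Stfa2l1, chr16:36160000-36160044, plus strand: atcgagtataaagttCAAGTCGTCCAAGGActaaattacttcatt
Stfa3, chr16:36452154-36452198, minus strand: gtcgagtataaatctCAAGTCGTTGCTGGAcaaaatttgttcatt
Gm5483, chr16:36186418-36186462, plus strand: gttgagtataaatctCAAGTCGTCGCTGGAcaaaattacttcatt
BC100530, chr16:36364215-36364259, minus strand: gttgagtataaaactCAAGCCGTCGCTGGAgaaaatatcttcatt

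Stfa2 and Stfa2l1 were identical over this stretch, with 0 differing bases, and so were Gm5483 and its cluster neighbour 2010005H15Rik. Stfa1 and BC100530 differed at 1 base, which lay in the loop codons. Stfa3 differed from Gm5483 at 4 bases, and the type 2 gene Cst3 differed from Stfa3 at 24. Over the whole coding sequence, Gm5483 shared 96.9% of bases with 2010005H15Rik, and Stfa2 shared 96.4% with Stfa2l1. Stfa3 stood further off, at 78.3% identity with Gm5483 and 81.6% with Stfa2l1.

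These likenesses bear on the counts, because the authors counted uniquely aligned reads of 50 bases. Among all 50-base windows of the annotated transcripts, 0% of those of Cst3, Cst7, Cstb and Stfa3 also occurred in a transcript of another gene. The share was 14.2% for Gm5483, 15.9% for Stfa2, 22.5% for Stfa1, 24.6% for Stfa2l1 and 36.2% for BC100530. Pooled over the 6 stefin A genes it was 19.3%. Of the 260 shared windows of Gm5483, 130 were identical to a stefin A copy, and its windows matched 771 genes outside the family. The search covered transcripts, not the rest of the genome. Every one of the 9 genes therefore kept windows of its own, 279 in Stfa2l1 and 504 in BC100530, the genes with the largest shared parts. A further 18.4% of the exonic bases of BC100530 overlap Gm15845 on the opposite strand. Whether counting used strand is not given in the sources used here.

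Cst3, the abundant secreted inhibitor cystatin C, was lower in every LPS library. Its level was 824, 887, 953 and 809 counts per 1000000 (CPM) in vehicle replicates 1 to 4, where CPM is relative to the library size scaled by the trimmed mean of M-values (TMM). After LPS it was 629, 432, 236 and 458 CPM. The groups did not overlap, with LPS replicate 1 nearest to the vehicle libraries and LPS replicate 3 far below the other LPS libraries. The mean level moved from 868 ± 65.8 to 439 ± 161 CPM (SD, n = 4), a log2 fold change of −0.98 with a standard error of 0.25. In bulk RNA, fewer expressing cells and less RNA per cell cannot be told apart, and the same holds for every level below.

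Cst7 encodes cystatin F, which is made by immune cells and reaches endolysosomes, where it is known to restrain cathepsin C and related enzymes. The vehicle libraries held 26.5, 10.6, 26.9 and 12.04 CPM of Cst7. The LPS libraries held 58.8, 74.7, 118 and 81.6 CPM. Every LPS library was above every vehicle library, and vehicle replicates 1 and 3 lay above vehicle replicates 2 and 4. The mean level was 19.0 ± 8.92 CPM with vehicle and 83.2 ± 24.9 CPM with LPS (SD, n = 4). The log2 fold change was 2.13 with a standard error of 0.35, or 4.38-fold.

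Cstb encodes stefin B, a cytosolic and nuclear inhibitor whose loss causes a progressive myoclonus epilepsy in humans. Its level was 227, 178, 214 and 180 CPM with vehicle. After LPS it was 288, 297, 337 and 322 CPM. The groups did not overlap, and the LPS libraries differed by at most 1.17-fold, against 2.67-fold for Cst3 and 2.00-fold for Cst7. The log2 fold change was 0.64 with a standard error of 0.12 on the TMM scale, but −0.038 when counts were divided by the plain library total. That scaling moved the median log2 fold change of all tested genes by −0.68, from −0.11 to −0.79. On the plain scale Cst3 was at −1.63 and Cst7 at 1.44, so both kept their direction while Cstb did not.

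**Figure D1:**
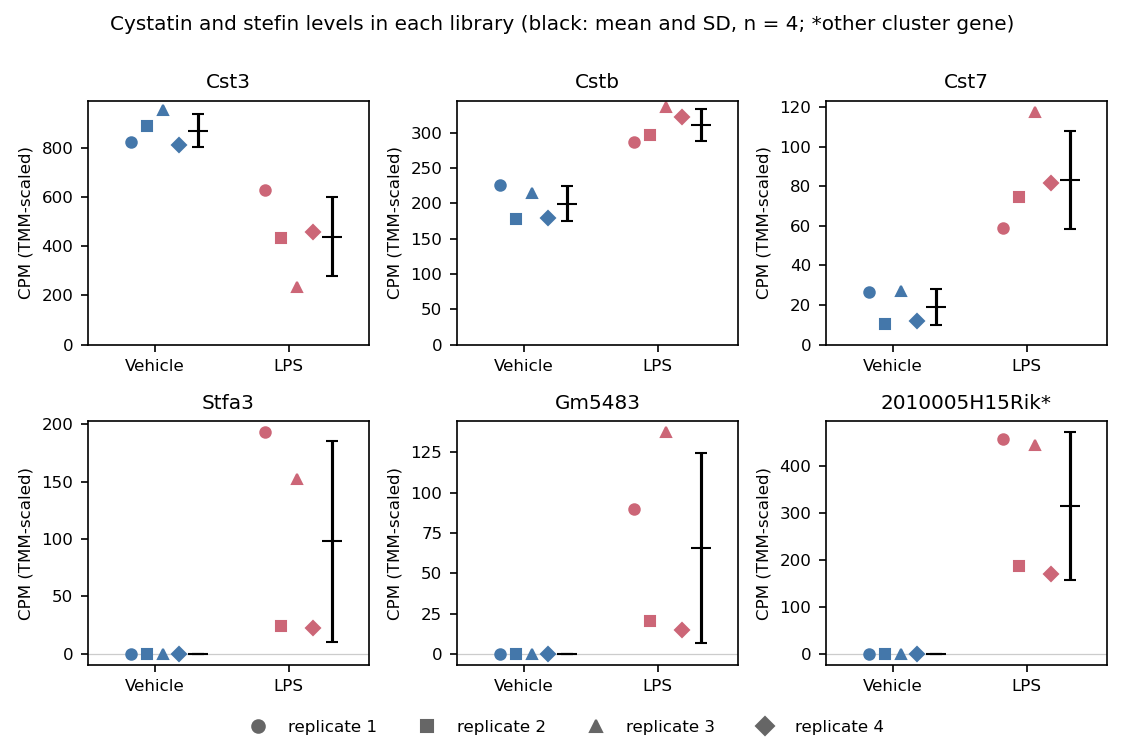
Level of Cst3, Cstb, Cst7, Stfa3, Gm5483 and the neighbouring stefin A copy 2010005H15Rik (asterisk) in each library, in CPM on the TMM scale. Symbols mark replicates 1 to 4, and black bars give the mean and SD of 4 libraries. Vehicle and LPS libraries do not overlap for any of the 6 genes, which holds for 60.2% of all genes tested. Stfa3 and Gm5483 are at 0 in all vehicle libraries.

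Stfa3, a stefin A copy, had 0 counts in all 4 vehicle libraries. The LPS libraries held 3224, 449, 3256 and 422 counts, equal to 193, 24.5, 152 and 22.8 CPM. LPS replicates 1 and 3 were high and replicates 2 and 4 low, with an 8.45-fold ratio of the highest to the lowest. Against a floor of 3 counts per vehicle library (0.103 CPM), the LPS mean of 98.02 ± 87.5 CPM (SD, n = 4) was at least 955-fold higher. Without LPS replicate 1 the mean was 66.4 CPM and the bound 647-fold. Intervals and floors cover counting error only.

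Gm5483, another stefin A copy, also had 0 counts in every vehicle library. After LPS it had 1502, 377, 2949 and 275 counts, or 89.9, 20.5, 138 and 14.9 CPM. Again LPS replicates 1 and 3 were high, but here replicate 3 was the highest, and the ratio of highest to lowest was 9.25-fold. The LPS mean of 65.7 ± 58.8 CPM (SD, n = 4) was at least 640-fold above the vehicle floor. Without LPS replicate 3 the mean was 41.8 CPM and the bound 407-fold. Reads from the windows that Gm5483 shares with 2010005H15Rik do not align uniquely and were not counted, and reads of the near-identical remainder rest on few differing bases, so both values are uncertain.

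The other 4 stefin A genes had few or no reads. Stfa1 had 0 counts in every vehicle library and 10, 4, 14 and 5 counts in the LPS libraries. All 4 LPS libraries were above the 3-count floor, and the mean of 0.435 CPM was at least 4.24-fold higher, as counted. Of the 710 windows of Stfa1, 160 were identical to one of another stefin A copy. A further 408 differed from the nearest at 1 or 2 bases, and 142 at 3 or more. Stfa1 held between 0.0794% and 0.129% of the counts of the cluster in each LPS library. Whether its few reads came from other copies was not tested, so its rise is uncertain. Stfa2 had 0 counts with vehicle and 2, 0, 4 and 1 counts with LPS, a sum of 7 with an exact 95% Poisson interval of 2.81 to 14.4. One LPS library was at 0, so the groups overlapped and no fold is given. Stfa2l1 and BC100530 had 0 counts in all 8 libraries, which allows up to 3 counts in a library, or 0.0952 to 0.180 CPM. This bound covers only reads that could be counted. Of their windows, 24.6% and 36.2% also occurred in another gene. A further 49.2% and 47.5% differed from another stefin A copy at 1 or 2 bases.

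Summed over the 6 stefin A genes, a value that does not depend on which of them a counted read was assigned to, the LPS libraries held 284, 45.2, 290 and 38.03 CPM against 0 in every vehicle library. The sum still depends on how reads were split between Gm5483 and 2010005H15Rik, which lies outside it. The LPS mean was 164 ± 142 CPM (SD, n = 4), at least 1601-fold above the 3-count floor of the sum. Without LPS replicate 3 the mean of the sum was 122 CPM and the bound 1191-fold. The cluster neighbour 2010005H15Rik held 0.525, 0.104, 0.444 and 0 CPM with vehicle and 458, 187, 445 and 171 CPM with LPS. Gm5416 had 0 counts with vehicle and 204, 53, 220 and 22 counts with LPS. Csta1 and BC117090 had 0 counts in all 8 libraries. Over all 10 cluster genes summed, the mean was 0.2682 ± 0.2555 CPM with vehicle and 486.1 ± 304.5 CPM with LPS (SD, n = 4). BC117090 and BC100530, which had no counted read, lie between Stfa1 and Stfa2, which had few.

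**Figure D2:**
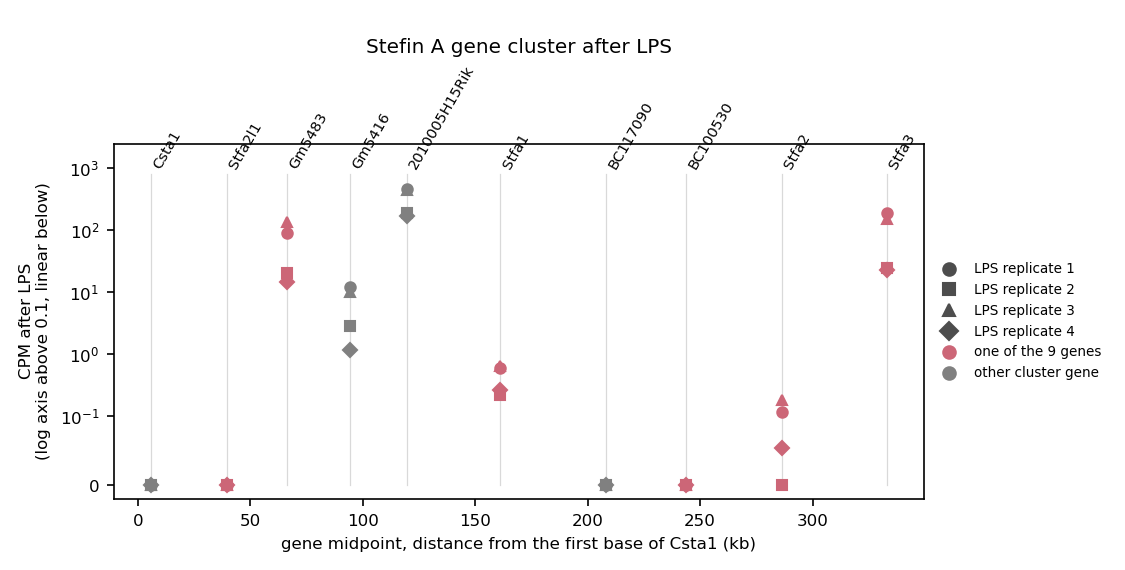
Level of the 10 stefin A cluster genes in the count table in each LPS library, placed by distance along the chromosome from the first base of Csta1 (kb). The vertical axis is CPM, logarithmic above 0.1 and linear below. Red points are the genes of the set and grey points the other cluster genes. 2010005H15Rik, Stfa3 and Gm5483 stand above the other genes, whereas Stfa2l1, BC100530, Csta1 and BC117090 are at 0.

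The order of the 9 genes was read per length, as CPM per kb of merged exons. With vehicle, Cst3 led at 686 ± 52.0, followed by Cstb at 331 ± 40.7 and Cst7 at 19.3 ± 9.05 (SD, n = 4), and these 3 did not overlap. After LPS the level was 516 ± 37.7 for Cstb, 347 ± 127 for Cst3, 238 ± 212 for Stfa3, 84.4 ± 25.2 for Cst7 and 35.3 ± 31.6 for Gm5483. Cst3 and Stfa3 overlapped, since Stfa3 ranged from 55.4 to 468 and Cst3 from 186 to 497. Cstb, at 477 to 559, overlapped the upper end of Cst3. On the longest transcript of Cst3 in place of its merged exons, the Cst3 mean after LPS was 510, close to that of Cstb. For Gm5483 the merged exons include a long transcript with a retained intron, and on its longest protein-coding transcript the level was 159. The neighbour 2010005H15Rik stood at 493 ± 247 per kb after LPS.

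**Figure D3:**
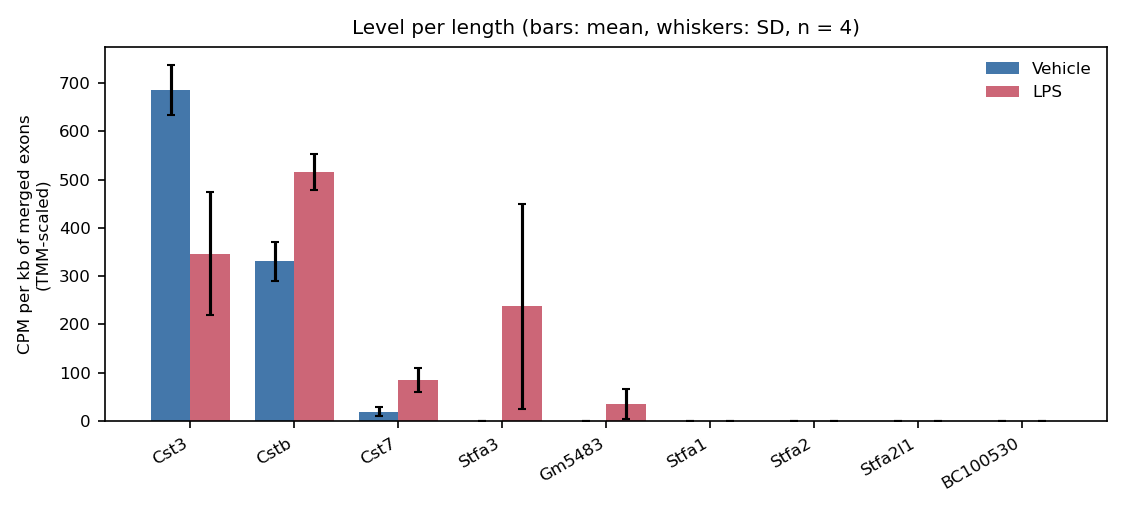
Level per length of the 9 genes, as CPM per kb of merged exons on the TMM scale. Bars are means and whiskers SDs of 4 libraries. Cst3 is the highest with vehicle, and after LPS Cstb has the highest mean, with a wide spread for Stfa3.

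The spread among LPS libraries differed from gene to gene. Stfa3 in LPS replicates 1 to 4 was 1.97, 0.250, 1.55 and 0.233 times the mean of the LPS libraries. Gm5483 was at 1.37, 0.312, 2.09 and 0.226 times its mean. Cstb stayed between 0.925 and 1.08 times its mean. Cst3 went another way, at 1.43 times its mean in replicate 1 and 0.537 times in replicate 3, while Cst7 was highest in replicate 3 and lowest in replicate 1. Over all genes, replicates 2 and 4 were the closest libraries in each group, with a chi-square per degree of freedom of 11.0 for vehicle and 6.98 for LPS, against 35.98 to 155 for the other pairs.

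**Figure D4:**
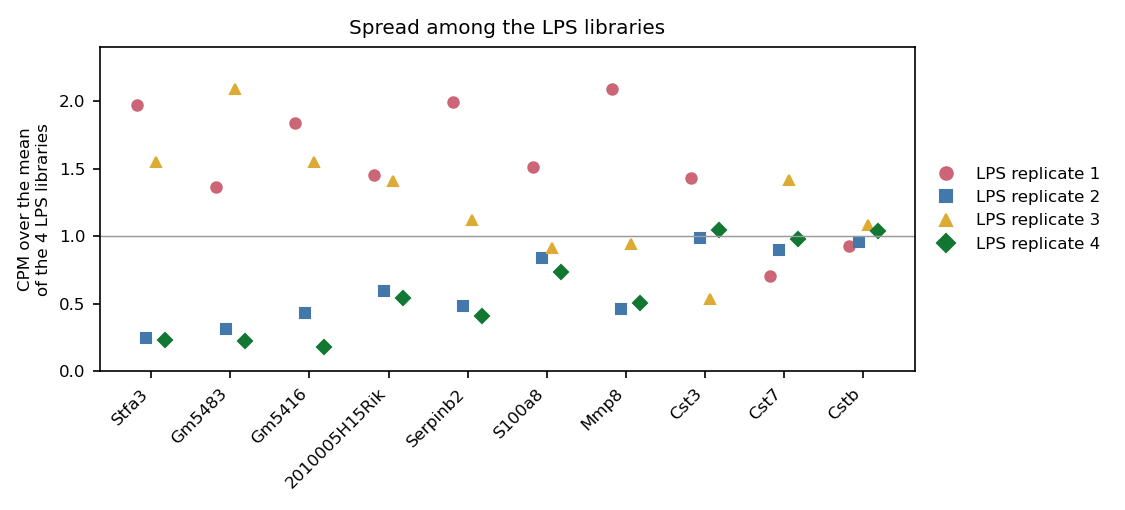
CPM in each LPS library divided by the mean of the 4 LPS libraries, for genes of the set and for genes outside it that are named in the text. Replicates 1 and 3 lie above replicates 2 and 4 for Stfa3, Gm5483, Gm5416 and 2010005H15Rik, and Cstb stays near 1 in all 4 libraries.

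Neutrophil genes moved with the stefin A genes in part. The summed level of 12 neutrophil markers ranged from 2.15 to 14.7 CPM with vehicle and from 713 to 1757 CPM with LPS. Of the 12, S100a8, which encodes a calcium-binding alarmin, and the collagenase gene Mmp8 passed the filter on low counts, and both rose, by log2 fold changes of 11.03 and 5.60, while the other 10 did not pass it. S100a8 was at 1173, 650, 712 and 572 CPM and Mmp8 at 581, 130, 262 and 141 CPM in LPS replicates 1 to 4, so replicate 1 was the highest for both. Camp, a granule peptide gene, had 3, 0, 1 and 0 counts with vehicle and 50, 6, 11 and 6 with LPS, did not pass the filter, and was higher in edgeR without the filter (adjusted p = 0.0013). S100a9, Mpo and Retnlg were listed at 0 in all libraries, and 9 of the 12 markers, the granule protease genes Elane and Prtn3 among them, had at most 3 counts in any library. Whether reads of a gene listed at 0, such as S100a9 beside the high S100a8, could be counted was not tested. A 0 here is therefore not taken as absence of the RNA. Keratinocyte markers summed to between 0.865 and 1.65 CPM with vehicle and between 0.703 and 1.04 CPM with LPS, and 4 of the 6 were at 0 throughout.

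The microglial identity of the cells was checked on 12 markers, which summed to between 11440 and 14480 CPM with vehicle and between 3225 and 3503 CPM with LPS. Of these, 9 fell, 1 rose and 2 did not pass the threshold, and with the replicate block 10 fell. Astrocyte markers summed to between 20.6 and 47.5 CPM with vehicle and between 41.2 and 125 CPM with LPS. Of 9 tested, 1 rose, Gja1 with a log2 fold change of 5.79, and 3 fell. Of 6 tested oligodendrocyte precursor markers 1 rose and 3 fell. Of 3 tested fibroblast markers 1 rose, and of 4 tested endothelial markers 3 rose. In this order the lists summed to at most 105, 5.80 and 83.4 CPM with vehicle and at most 125, 25.1 and 272 CPM with LPS. With the replicate block, in which same-numbered libraries are paired, 4 astrocyte markers and 5 oligodendrocyte precursor markers fell, and 2 fibroblast and 4 endothelial markers rose. The part of these shifts in the stefin and cystatin levels was not tested.

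Of the 9 genes, 5 passed the filter on low counts, and Stfa3 and Gm5483 passed only through their LPS libraries. All 5 were past an adjusted p of 0.05 in edgeR, 4 higher and 1 lower after LPS, where 64.1% of the 13847 genes tested were called, 30.3% higher and 33.8% lower. The CPM of both groups did not overlap for any of the 5, and this held for 60.2% of all genes tested. As the 9 genes were selected on this contrast, nothing is read from these counts. The median log2 fold change of all genes tested was −0.11.

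The proteases that cystatins inhibit showed a mixed picture. Of 11 cysteine protease genes 10 were tested, and 3 rose and 2 fell in edgeR's quasi-likelihood test with Benjamini-Hochberg adjustment over all genes. By the same test 30.3% of all genes tested were called higher and 33.8% lower. Ctsc, the dipeptidyl peptidase that activates granule serine proteases, rose from 1544 ± 172 to 3993 ± 623 CPM (log2 fold change 1.37 ± 0.17 SE, adjusted p = 6.9e-05). Ctsz, a carboxypeptidase, rose from 1013 ± 200 to 1978 ± 206 CPM, with a log2 fold change of 0.97 (adjusted p = 0.00078). Ctsb, a major lysosomal protease, fell by 0.57 on the log2 scale, to 11830 ± 1431 CPM (edgeR adjusted p = 0.016). Ctsf fell by 2.42 on the log2 scale, from 49.9 ± 8.73 to 9.39 ± 3.78 CPM (edgeR adjusted p = 3.3e-05).

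Ctso was past the threshold on the TMM scale, with a log2 fold change of 0.29 (edgeR adjusted p = 0.029), but was lower on the plain library total, at −0.39. The remaining 5 tested cysteine proteases did not pass the threshold. Ctss, a protease of antigen presentation, was at 2823 ± 536 CPM with vehicle and 2852 ± 282 CPM with LPS. Ctsl was at 1140 ± 471 and 1227 ± 82.6 CPM, Ctsh at 164 ± 36.1 and 193 ± 44.5 CPM, and Ctsk at 2.10 ± 2.37 and 1.52 ± 1.82 CPM. The asparaginyl endopeptidase gene Lgmn, whose product is inhibited by cystatin C at a second site, was at 2148 ± 156 and 2859 ± 843 CPM. The median log2 fold change over the 10 genes was 0.17. On plain library totals the calls became 1 higher and 5 lower, and Ctsz, at 0.30, was not past the threshold. Leaving out 1 library brought Ctsh (vehicle replicate 3, 0.45), Ctsl (vehicle replicate 1, 0.46) and Lgmn (LPS replicate 1, 0.58) past it. Exons of Ctsb and Ctsl overlap those of other genes in part.

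The 3 tested cathepsins of other protease classes, which cystatins do not inhibit, all fell, where 33.8% of all genes tested were called lower. The aspartic protease gene Ctsd fell from 8402 ± 339 to 3082 ± 563 CPM, by 1.45 on the log2 scale (edgeR adjusted p = 6.5e-05). The serine carboxypeptidase gene Ctsa fell by 1.03 (edgeR adjusted p = 6.4e-05) and the aspartic protease gene Ctse fell by 3.36 (edgeR adjusted p = 1.1e-05). Ctsg had 0 counts in all libraries. For Ctsd, 34.4% of exonic bases overlap Gm49369 on the same strand.

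**Figure D5:**
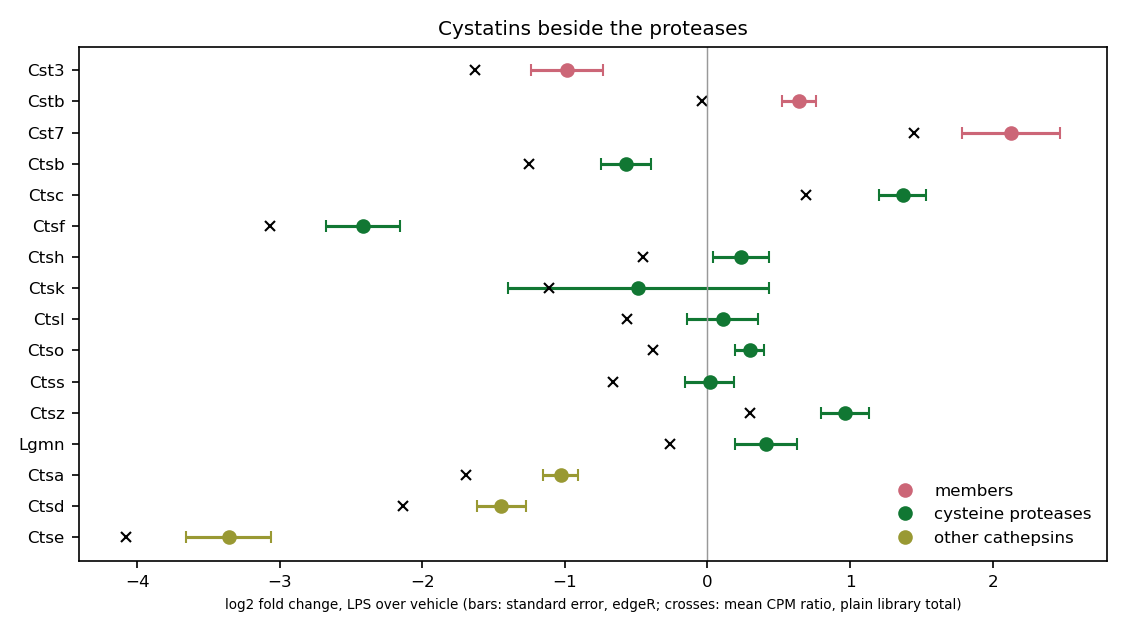
Log2 fold change of LPS over vehicle for Cst3, Cstb and Cst7, 10 cysteine proteases and 3 other cathepsins. Points and bars are edgeR's estimate and standard error on the TMM scale, and crosses the log2 ratio of mean CPM on the plain library total. Cstb, Ctsh, Ctsl, Ctso, Ctss and Lgmn lie above 0 on the first scale and below 0 on the second.

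Of 22 symbols listed for the rest of the cystatin superfamily, 18 were in the table under that symbol and 2 passed the filter, both of the stefin A cluster. 2010005H15Rik, named Csta2 by RefSeq, rose with a log2 fold change of 10.15 ± 0.70 SE. Gm5416, named Csta3 by RefSeq, rose from 0 in every vehicle library to 6.64 ± 5.41 CPM, at least 64.7-fold. Without LPS replicate 1 the bound of Gm5416 was 46.6-fold. Both genes passed the filter only through their LPS libraries, so these rises are given as a description. Another 13 of the 18 were at 0 in all 8 libraries, among them the secreted cystatin genes Cst8, Cst9 and Cst10 and the kininogen genes Kng1 and Kng2. No level of Gm4758 or Cst14 was analysed here.

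Of 16 listed inhibitors outside the cystatin family, 14 were tested, and 7 rose and 5 fell. Of all genes tested, 64.1% were called in either direction. Serpinb2, a clade B serpin, rose from 0.650 ± 0.621 to 1222 ± 896 CPM. Serping1, the C1 inhibitor, rose from at most 3 counts in each vehicle library to 11.6 ± 7.25 CPM. Both serpins passed the filter only through their LPS libraries, so these rises are given as a description. On the log2 scale Serpinb6b fell by 3.00, Serpinf1 fell by 1.77 and Serpine2 fell by 1.34. The groups overlapped for Serpinf1, which was past the threshold no longer when any 1 of 7 of the 8 libraries was left out (edgeR adjusted p up to 0.077), and was at −2.99 without LPS replicate 1. The median log2 fold change over the 14 genes was 0.06. The calpain inhibitor gene Cast rose on the TMM scale, with a log2 fold change of 0.62, or 0.38 without LPS replicate 3, and was at −0.08 on plain library totals.

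The genes with profiles closest to each inhibitor were found by the root mean square difference of log2 CPM over the 8 libraries, each profile centred on its own mean, among 8010 genes. Closest to Cst3 were Mbd3 (0.115), Cenpb (0.116) and Gcn1l1 (0.119). Closest to Cstb were Mtmr6 (0.0706), Usp3 (0.0788) and Clcn7 (0.0788). Closest to Cst7 were Vim (0.237), which encodes the intermediate filament protein vimentin, Tbc1d9 (0.289) and Ppfibp2 (0.294). For the summed stefin A level no gene came as close, and the nearest were Il1a (0.743), which encodes the cytokine interleukin-1 alpha, 2010005H15Rik (0.924) and Slfn4 (0.979). All vehicle values of that sum were 0, so they are set by the 0.1 CPM added before the log. Its differences depend on that choice and are not comparable with those of the other inhibitors.

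Promoters of stefin A genes are shown because a copy with many counted reads and a copy with none were more alike there than some pairs of copies with many. A copy with no counted read may still be expressed, which was not tested. RefSeq (GRCm38.p6) gives a start for 5 of the 6 genes. The 120 bases before it are printed, 5′ to 3′ on the strand of the gene, for Stfa3 and Gm5483, with many reads after LPS, and for Stfa2l1, with none. Capitals mark ACCTTTAAAACCC, the longest run common to the 250 bases before each of the 5 starts.
Stfa2l1, chr16:36156691-36156810, plus strand: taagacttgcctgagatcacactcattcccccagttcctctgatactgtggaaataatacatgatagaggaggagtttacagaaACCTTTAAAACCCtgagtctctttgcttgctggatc
Stfa3, chr16:36455393-36455512, minus strand: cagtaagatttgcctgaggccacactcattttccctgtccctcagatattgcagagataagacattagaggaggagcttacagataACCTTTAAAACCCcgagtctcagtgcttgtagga
Gm5483, chr16:36184092-36184211, plus strand: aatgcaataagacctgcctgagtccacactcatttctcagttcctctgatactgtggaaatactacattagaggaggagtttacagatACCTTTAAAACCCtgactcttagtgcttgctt

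The run of 13 bases began 32 to 36 bases before the start in each of the 5 genes. It was also found 80 bases before the start of Gm5416 and in the promoter of Gm7260, and in no other of 27025 RefSeq promoters of the same length on either strand, a share of 0.0259%. It was chosen for being shared, so its rarity is a description. Over 250 bases, the promoter of Stfa3, with up to 193 CPM, was identical to that of Stfa2l1, with no counted read, at 82.4% of bases. To that of Gm5483 it was identical at 69.2%. Gm5483 and Stfa2l1 were 74.4% identical. Csta1, a copy with no counted read, did not hold the run within its 250 bases. With Stfa3 160 of these aligned and with Gm5483 161, and 131 were identical in each case, or 52.4% of 250. The bases of Csta1 just before its start resemble bases of Stfa3 that lie upstream of the run. The place of the run may therefore lie outside the 250 bases taken for Csta1. The 250 bases taken for 2010005H15Rik did not hold the run either, and were 46.4% identical to those of Gm5483. Cst3, outside the cluster, was 44.8% identical to Gm5483. The bases of 2010005H15Rik end at chr16:36221561, far upstream of its loop codons at chr16:36255595-36255639. They need not be the counterpart of those compared in the other copies.

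Motif letters were searched in the 250 bases on both strands. The kappaB pattern, GGG and CC with any 5 bases between them, occurred in Cst3, Stfa1 and Stfa2 and in 45.4% of all promoters. The C/EBP pattern TTGCNNAA occurred in Stfa1 and in 9.55% of all promoters. The AP-1 pattern TGANTCA (6.87%), the interferon response pattern of GAAA repeated after any 2 bases (3.04%) and the PU.1 pattern GAGGAAGT (2.44%) occurred in none of the 7 genes of the set with an entry. Cst7, Stfa3, Stfa2l1 and Gm5483 held none of the 5 patterns. No matches of different patterns overlapped. A match of letters is not a site in use.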

How the data were processed

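RNA was measured in 8 libraries of cultured microglia, 4 per group, grouped by the treatment in the labels. The labels name a stranded mRNA kit and the study's methods another TruSeq RNA kit, which is not described as stranded, both with single-end reads of 50 bases. Reads of a gene and of an overlapping gene on the other strand may therefore not be told apart. The authors deposited raw counts per Ensembl gene, made with HTSeqGenie 4.30 and GSNAP on GRCm38 from uniquely aligned reads. The annotation release and the use of strand are not given in the sources used here. Symbols were taken from GENCODE vM21 and matched 52403 of 52636 identifiers, and identifiers without a symbol held 0.0155% of counts.

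Genes were filtered with filterByExpr (minimum count 10, minimum total 15), scaled by TMM and tested with glmQLFit and glmQLFTest in edgeR 4.0.16 (R 4.3.3), LPS against vehicle, with Benjamini-Hochberg adjustment over the 13847 genes tested and a threshold of 0.05. TMM library sizes and counts gave CPM. Standard errors are the fold change divided by the square root of F. DESeq2 1.42.0 was an alternative. On simulated counts for this comparison with 200 changed genes, edgeR recovered 79.7% of those tested, and 4.27% of its calls were false. The simulated rises and falls were drawn alike and were few, whereas 64.1% of genes tested were called in these data. The simulation therefore does not check the TMM scaling used here. Lists, sequence windows, promoters and figures were handled in Python 3.11.15 with pandas 2.3.3, scipy 1.17.1, Biopython 1.88 and matplotlib 3.10.9. Profiles used log2(CPM + 0.1), over genes whose log2 CPM averaged 3 or more.

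The 9 genes and the lists (cysteine proteases, other cathepsins, other cystatin superfamily genes, other protease inhibitors and markers of microglia, neutrophils, astrocytes, oligodendrocyte precursors, fibroblasts, keratinocytes and endothelium) were chosen with earlier results of these data known. Named were the 9 genes, all tested proteases, the 3 largest rises and falls past the threshold of the other inhibitor lists, and the 3 nearest genes per profile. A gene that this rule would name among the other inhibitors is not reported here. Other genes, the markers among them, were named after their values were seen. Cstad was listed with the cystatins by its symbol only.

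Deviations of same-numbered libraries from their group means correlated at 0.373, 0.196, 0.172 and 0.108 over 8010 genes, and vehicle 2 with LPS 4 and vehicle 4 with LPS 2 correlated at 0.146 and 0.137. As all same-numbered pairs were above 0.1, the replicate block takes the numbers to pair the libraries. The cross pairs just named were above 0.1 too, so this rule does not single out same-numbered pairs. No label says that a number marks a shared culture. Standard errors and p-values are from the fit without the block, except where the block is named. Nothing states that replicates came from separate cultures, so p-values measure the spread between these libraries, which may be technical. TMM library sizes were larger than the totals in all vehicle libraries and smaller in all LPS libraries.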

Additional observations from a re-analysis of the deposited data

How the results depend on the processing

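The number of the 9 genes past the threshold was 5, and became 3 when at least 10 counts were required in every library, which leaves out Stfa3 and Gm5483 by construction. The same requirement left 0 of the other cystatin superfamily genes and 7 of the other protease inhibitors. The cysteine proteases past the threshold numbered 5, or 3 at an adjusted p under 0.01, and between 3 and 6 when 1 library was left out, the lowest without vehicle replicate 2, when Ctsb and Ctso were past it no longer. Without vehicle replicate 4, Ctso was not past it either. Upper quartile scaling, which also lost Ctso, moved the log2 fold change of Cstb to 0.48. Dividing by library totals, an alternative chosen after seeing the data, turned Cstb to −0.038, and lowered Cst3 to −1.63 and Cst7 to 1.44. With the replicate block, which treats same-numbered libraries as paired, 5 of the 9 genes and 5 of the cysteine proteases were past the threshold, as without it, and Cst3 was at −1.06, Cst7 at 2.21 and Cstb at 0.64. The block changed no call of the 9 genes or the protease and inhibitor lists, but added calls among markers. The summed stefin A level after LPS ranged from 122 to 206 CPM when 1 LPS library was left out, against 164 CPM with all 4.

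The share of stefin A windows found in other genes was 27.8% at 36 bases and 10.6% at 75 bases, against 19.3% at 50. The Cst3 level after LPS was 510 per kb on its longest transcript and on its longest protein-coding transcript, and Gm5483 was at 159 on the latter, which was chosen after seeing the data. With no filter on low counts, 7 of the 9 genes were past the threshold, since Stfa1 and Stfa2 entered the test, and Ctso was past it no longer. With DESeq2 it was 6.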
